A study of Danio rerio with 7 samples.

Results

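The 150 transcript clusters described here were present in a control tail fin and at the anterior cut edge of an amputated zebrafish fin. Each edge was sampled at 24, 48 and 72 h. At the posterior cut edge 146 clusters were listed at 0 at all 3 times, and 4 had a value above 0, far below their control. The 150 are among 433380 clusters in the deposited table. They were chosen by a score on log2(FPKM + 1), where FPKM counts sequenced fragments relative to a feature's length and to the size of the library. The score was the lowest value of the control and the 3 anterior libraries minus the highest value of the 3 posterior libraries, and the 150 highest scores were taken. The values of all 7 libraries therefore chose the members, so their levels and the gap between the edges are given as a description, with no test.

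RNA from tail fin of zebrafish (Danio rerio) was sequenced in 7 libraries, 1 per group. The control carries no edge and no time in its labels, and the labels do not state that it was uncut. Of the cut fins, the edge on the anterior side (ACE) and that on the posterior side (PCE) were each sampled at 24, 48 and 72 h post amputation. No genotype, strain, age, treatment or number of pooled fish is given in the sources used here for any group. The title names calcineurin, a phosphatase activated by calcium, and proximodistal polarity of the regenerating tissue.

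A zebrafish fin regrows after amputation from a blastema, a mass of proliferating cells that forms under a wound epidermis at the stump. The regrown fin holds bony rays, joints, vessels, nerves and skin, and growth normally runs outwards from the body. Genes that are on in mature fin tissue can be low in a blastema or a wound surface, where tissue makeup and cell state both differ. In bulk RNA, fewer cells of a type and less RNA per cell cannot be told apart.

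None of the identifiers (0) matched a gene in the zebrafish reference tables, so no cluster has a gene name, and neither a role, a chromosome nor a sequence is given. Tissue or cell type markers could not be checked for the same reason. Transcripts of near-identical copies may be split between clusters, which makes the level of a single cluster uncertain. The FPKM of a library summed to between 1748110 (ACE 72 h) and 3010857 (PCE 24 h). Between 96680 (PCE 72 h) and 181371 (ACE 72 h) clusters were above 0 per library, with 122580 and 115844 in PCE 24 h and PCE 48 h, 122838 and 143247 in ACE 24 h and ACE 48 h, and 170017 in the control. PCE 24 h stood apart, since clusters seen in that library alone held 29.3% of its total, against 1.96% to 7.45% in the others. The number of reads behind a value is unknown.

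The cluster with the highest score, Cluster-118330.110302 (score 5.92), stood at 59.4 FPKM in the control library and 73.9, 81.1 and 131.4 FPKM at the anterior edge at 24, 48 and 72 h. It was listed at 0 in all 3 PCE libraries, and its ACE level was above the control at every time. Cluster-118330.88017 (score 5.66) was the steadiest of the abundant ones, with 61.3 FPKM in the control library and 54.0, 59.2 and 49.6 FPKM at the anterior edge, again with 0 in PCE. Its highest value was 1.24 times its lowest among the control and ACE libraries.

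The next clusters by score were also listed at 0 in PCE and varied between the control and ACE libraries. Cluster-118330.128952 stood at 201 FPKM in the control library, 149.5 FPKM in ACE 24 h, and 39.4 and 52.6 FPKM in ACE 48 h and ACE 72 h. Cluster-118330.119978 stood at 74.5 FPKM in the control library and 53.0, 34.5 and 43.3 FPKM at the anterior edge. Both were lower in every ACE library than in the control, while a pair of others peaked in ACE 24 h. Cluster-118330.102995 stood at 29.6 FPKM in the control library and 102.9, 40.0 and 31.6 FPKM at the anterior edge, and Cluster-118330.152116 at 44.97 FPKM in the control library and 90.9, 70.3 and 27.2 FPKM at the anterior edge.

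The remaining 4 of the 10 highest scores repeat these shapes. Cluster-118330.152181 stood at 44.9 FPKM in the control library and 66.3, 23.4 and 39.3 FPKM at the anterior edge. Cluster-118330.138935 stood at 44.3 FPKM in the control library and 64.1, 20.01 and 42.0 FPKM at the anterior edge. These clusters were highest in ACE 24 h and lowest in ACE 48 h. Cluster-118330.126792 stood at 65.6 FPKM in the control library and 22.7, 24.4 and 22.0 FPKM at the anterior edge, a lower level at each time. Cluster-118330.158736 stood at 136 FPKM in the control library and 20.5, 25.8 and 64.9 FPKM at the anterior edge, so it was lowest at 24 h and nearest to the control at 72 h. All 10 were listed at 0 in every PCE library.

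**Figure D1:**
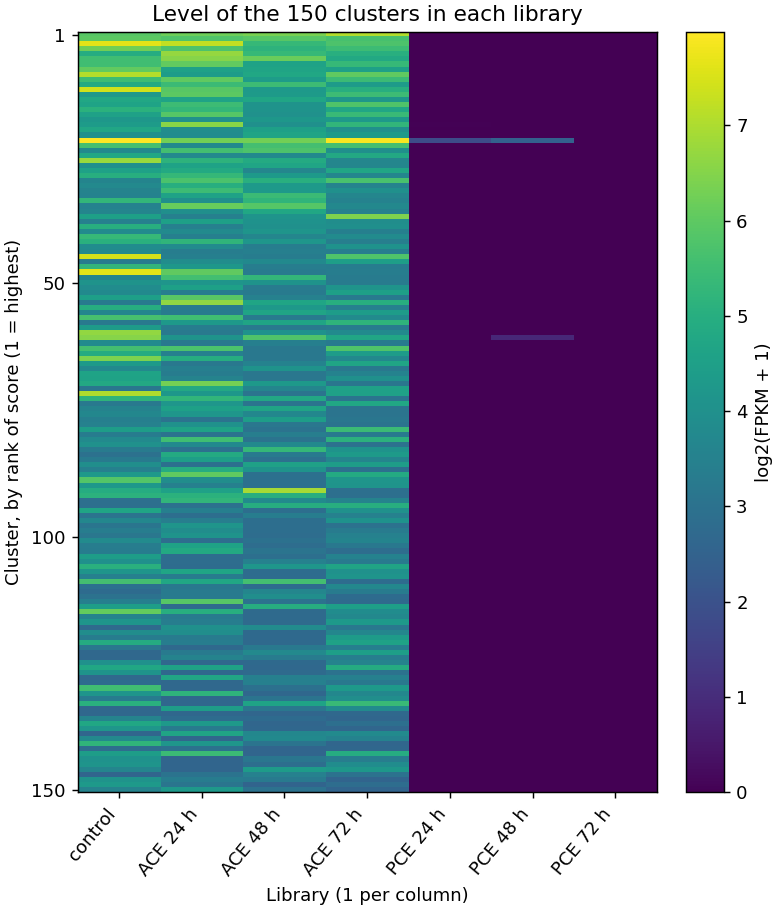
Level of each of the 150 clusters (rows, by rank of score) in each of the 7 libraries (columns), as log2(FPKM + 1) in colour. The control and ACE columns are above 0 in every row, with a floor of 4.95 FPKM, while 146 rows are at 0 in all 3 PCE columns.

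Over the 150 clusters the median level was 16.2 FPKM in the control. It was 16.1, 11.6 and 13.4 FPKM at the anterior edge at 24, 48 and 72 h, and 0 FPKM in each PCE library. The lowest value was between 4.95 and 5.02 FPKM in the control and each ACE library, which reflects the score. The highest was 250.7 FPKM in the control library and 149.5, 118.4 and 236.6 FPKM at the anterior edge. Summed over the 150 clusters, the level was 4431 FPKM in the control library and 3776, 2639 and 3068 FPKM at the anterior edge. The sum in ACE was thus 85.2%, 59.6% and 69.3% of the control's at 24, 48 and 72 h. Over all 11283 clusters with at least 4.95 FPKM in the control and each ACE library, it was 118%, 106% and 96.9%. A sum weighs abundant clusters most. The 150 clusters held 0.246% of the control's total FPKM and 0.137% to 0.182% of that of the ACE libraries. They are thus a small part of the summed FPKM, which is scaled by length and is not a share of RNA.

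The limit of the choice lay at a score of 2.57. Just inside it were Cluster-118330.185157, Cluster-118330.116348 and Cluster-118330.123363, with scores of 2.58, 2.58 and 2.57. Just outside were Cluster-118330.27872, at 0 in PCE except for 0.75 FPKM in PCE 72 h, and Cluster-118330.143048 and Cluster-118330.188197, both at 0 in PCE and at 4.86 FPKM in ACE 24 h. Their scores were 2.56, 2.55 and 2.55. The scores are continuous across the limit.

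Loss at the posterior edge was close to complete in what the table lists. Of the 150 clusters, 147 were listed at 0 in PCE 24 h, 146 in PCE 48 h and 148 in PCE 72 h, and 146 were at 0 at all 3 times. These counts follow from the score and carry no weight of their own. For scale, all clusters with at least 4.95 FPKM in the control and in each ACE library, the lowest value any member had there, are called kept clusters below. There were 11283 of them, whatever their level in PCE. Of the kept clusters, 8.98% were listed at 0 in PCE 24 h, 3.63% in PCE 48 h and 7.23% in PCE 72 h, and 1.29% at all 3 times. The latter 146 kept clusters are all members. Over the wider set of 122784 clusters whose mean FPKM was 1 or more, the shares listed at 0 were 39.2%, 47.5% and 53.2%, and 12.7% at all 3 times.

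The exceptions were 4 members with a value above 0 in PCE. Cluster-118330.131800, the most abundant member by its mean over control and ACE (160 FPKM), stood at 250.7 FPKM in the control library and 76.9, 76.0 and 236.6 FPKM at the anterior edge. At the posterior edge it had 2.58, 4.52 and 0 FPKM at 24, 48 and 72 h. It retained 1.03% of its control level in PCE 24 h and 1.80% in PCE 48 h, and was listed at 0 at 72 h. Its 4.52 FPKM in PCE 48 h was the highest PCE value of any member. For scale, the lowest value of any member in the control and ACE libraries was 4.95 FPKM. Cluster-118330.121434 stood at 92.0 FPKM in the control library and 16.1, 53.9 and 25.5 FPKM at the anterior edge. It had 0.85 FPKM in PCE 48 h, which is 0.924% of the control, and 0 in the other PCE libraries.

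Only Cluster-118330.132930 and Cluster-118330.88482 were above 0 in all 3 PCE libraries, both at trace levels. Cluster-118330.132930 had 0.03, 0.02 and 0.02 FPKM there, against 19.6 FPKM in the control library and 93.4, 15.0 and 37.4 FPKM at the anterior edge. Cluster-118330.88482 had 0.01 FPKM in each PCE library, the lowest value above 0 in the table, against 5.96 FPKM in the control library and 8.73, 11.7 and 9.01 FPKM at the anterior edge. Summed over the 150 clusters, PCE held 2.62, 5.40 and 0.03 FPKM at 24, 48 and 72 h, or 0.0591%, 0.122% and 0.000677% of the control's sum. Most of the first and second of these sums is Cluster-118330.131800 alone.

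Among the kept clusters, loss at a single time was far more frequent than loss at all times. Of the 1013 kept clusters listed at 0 in PCE 24 h, 566 were above 0 at both later times. Of the 410 at 0 in PCE 48 h, 116 were above 0 at both other times, and of the 816 at 0 in PCE 72 h, 347 were. The 146 that were at 0 at all 3 times made up 14.4% of the first list, 35.6% of the second and 17.9% of the third. Of the 384 kept clusters at 0 in both PCE 24 h and PCE 72 h, 238 (62.0%) were above 0 in PCE 48 h, with a median of 13.1 FPKM among those. Of the 231 at 0 in PCE 48 h and PCE 72 h, 85 (36.8%) were above 0 in PCE 24 h, and of the 209 at 0 in PCE 24 h and PCE 48 h, 63 (30.1%) were above 0 in PCE 72 h. PCE 48 h was thus the library with the largest number of clusters above 0 that were at 0 in the other PCE libraries. It also had the lowest share of kept clusters at 0, with 3.63% against 8.98% in PCE 24 h and 7.23% in PCE 72 h.

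At the anterior edge the members were present at every time by the choice. The score took the lowest value of the control and ACE libraries, so the choice also bore on how even the members were. Their shares, ranges and differences from the control below describe values that the choice used. Within 1 of the control on the log2 scale, which is close to a factor of 2 for abundant clusters, lay 76 of 150 (50.7%) in ACE 24 h, 91 (60.7%) in ACE 48 h and 95 (63.3%) in ACE 72 h. The shares of kept clusters were 64.5%, 62.3% and 70.3%. In all 3 ACE libraries at once, 44 members (29.3%) lay within 1 of the control, against 46.0% of kept clusters. In the wider set, many of which are at 0 in both libraries compared, the shares were 64.3%, 63.3% and 70.7%, and 45.7% in all 3.

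The lower share among members was seen at each level of abundance, by bounds chosen after the data were seen. Where the lowest value in control and ACE was under 10 FPKM, 30.0% of 110 members and 43.5% of 5097 kept clusters lay within 1 of the control in all 3 ACE libraries. From 10 to 20 FPKM the shares were 27.6% of 29 and 46.9% of 3121, and from 20 FPKM they were 27.3% of 11 and 49.1% of 3065. The highest bound holds only 11 members. These are counts over clusters of the same 4 libraries, with no replicate library to set an error.

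The median range over the control and ACE libraries was 1.66 on the log2 scale for the members and 1.17 for the kept clusters. The range was under 1 for 24 members (16.0%) against 40.0% of kept clusters. The highest value was over 4 times the lowest for 54 members (36.0%) against 20.8%, and over 10 times the lowest for 10 members (6.67%) against 3.41%.

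The steadiest member was Cluster-118330.123030, with 5.38 FPKM in the control library and 5.33, 5.26 and 5.51 FPKM at the anterior edge, a highest value 1.05 times the lowest. Cluster-118330.42715 stood at 17.8 FPKM in the control library and 15.4, 17.6 and 19.1 FPKM at the anterior edge. Cluster-118330.114407 (5.09 to 6.79 FPKM) and Cluster-118330.150420 (7.19 to 9.70 FPKM) complete the 5 of smallest range, with Cluster-118330.88017. All 5 were listed at 0 in PCE at every time.

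At the other end, Cluster-118330.148449 stood at 201.1 FPKM in the control library and 63.6, 9.08 and 9.44 FPKM at the anterior edge, a highest value 22.1 times the lowest. Cluster-118330.128567 stood at 174.8 FPKM in the control library and 9.79, 9.19 and 53.9 FPKM at the anterior edge, and Cluster-118330.165802 at 128.9 FPKM in the control library and 17.6, 7.48 and 22.8 FPKM at the anterior edge. Cluster-118330.110605 stood at 100.9 FPKM in the control library and 8.29, 15.6 and 13.1 FPKM at the anterior edge. Cluster-118330.141998, among the 5 of highest mean, was of the same kind, with 168.7 FPKM in the control library and 58.7, 18.4 and 30.8 FPKM at the anterior edge. In these 5 clusters the control was the highest library, and the anterior edge kept only part of its level. Cluster-118330.124552 differed, with 29.5 FPKM in the control library, 22.6 FPKM in ACE 24 h, 118.4 FPKM in ACE 48 h and 6.57 FPKM in ACE 72 h.

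**Figure D2:**
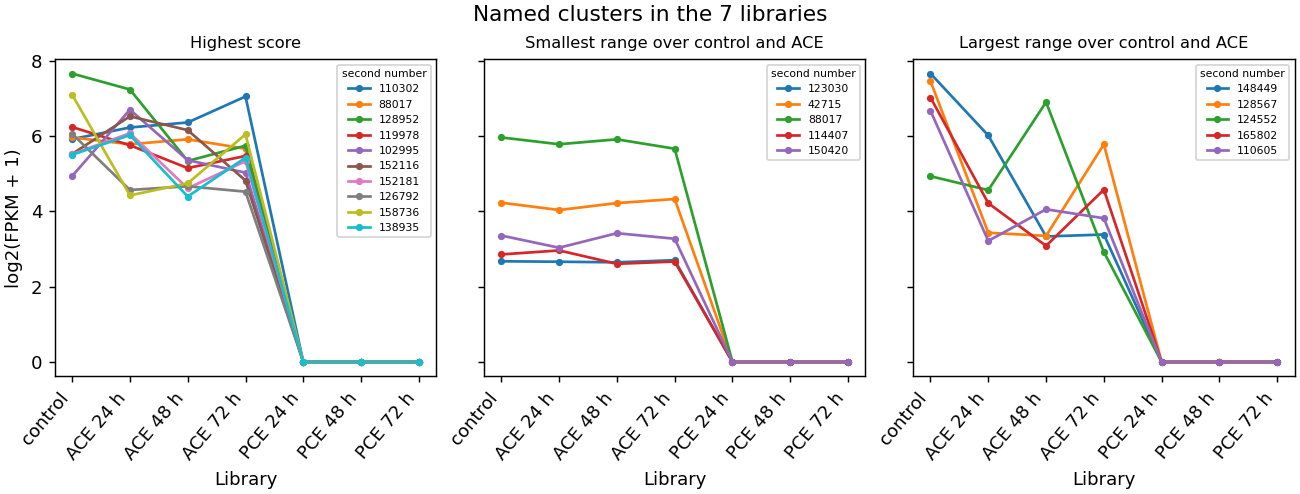
Level of the named clusters in the 7 libraries as log2(FPKM + 1), 1 line per cluster, labelled by the second number of its identifier, which follows 118330 in every case. The 10 of highest score and the 5 of smallest and of largest range over control and ACE are all at 0 in the 3 PCE libraries, but the last 5 span 12.2 to 22.1 times between their lowest and highest control or ACE value.

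Over all 150, the members leaned below the control at the anterior edge, least so in ACE 24 h. The median difference from the control on the log2 scale was -0.12 in ACE 24 h, -0.45 in ACE 48 h and -0.22 in ACE 72 h, against 0.22, 0.28 and 0.20 for the kept clusters. All 3 ACE libraries were below the control for 51 members (34.0%) and above it for 24 (16.0%), while of the kept clusters 24.2% were below and 43.6% above. In ACE 24 h, 69 members were above the control and 81 below. The lean did not hold at each level of abundance, split by the lowest value in control and ACE. For the 29 members from 10 to 20 FPKM, the medians were 0.30, -0.08 and 0.08 at 24, 48 and 72 h. Under 10 FPKM they were -0.16, -0.49 and -0.25, and from 20 FPKM -0.18, -1.09 and -0.30. Median-of-ratios scaling shifted ACE against the control by -0.21, -0.34 and -0.32. Under it 68 members were below and 18 above, with kept clusters at 34.8% and 31.4%, and the members' medians were -0.33, -0.76 and -0.50 against 0.02, -0.03 and -0.09 for the kept clusters. With quantile normalization 61 members were below and 21 above, and the kept clusters were at 29.6% and 37.9%.

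At all 3 times and by 1 or more (log2), 19 members (12.7%) were below the control, against 5.72% of kept clusters, and 4 (2.67%) were above it, against 10.3%. The 4, named after their values were seen, were Cluster-118330.80023, Cluster-118330.148064, Cluster-118330.131560 and Cluster-146425.0. Cluster-118330.148064 stood at 8.70 FPKM in the control library and 98.5, 24.9 and 31.3 FPKM at the anterior edge. Cluster-118330.80023 stood at 11.0 FPKM in the control library and 51.3, 31.5 and 50.2 FPKM at the anterior edge. Cluster-118330.131560 stood at 5.17 FPKM in the control library and 24.5, 11.8 and 13.2 FPKM at the anterior edge. These 3 were highest in ACE 24 h, whereas Cluster-146425.0 was higher at each later time, with 8.36 FPKM in the control library and 19.0, 24.0 and 35.2 FPKM at the anterior edge.

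**Figure D3:**
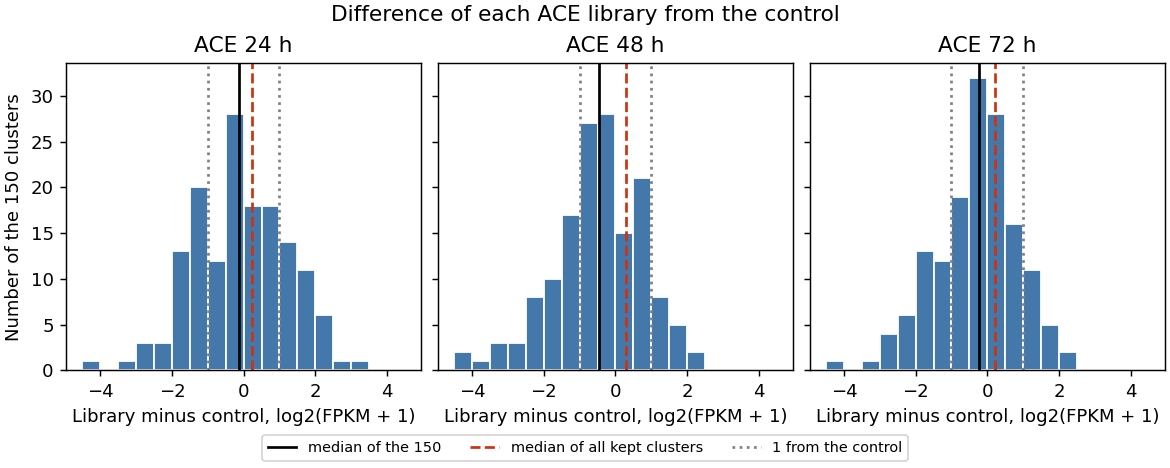
Number of the 150 clusters (vertical axis) by their difference from the control on the log2(FPKM + 1) scale (horizontal axis) in ACE 24 h, ACE 48 h and ACE 72 h. The solid line is the median of the 150 (-0.12, -0.45 and -0.22), the dashed line the median of the 11283 kept clusters (0.22, 0.28 and 0.20), and the dotted lines mark 1 on either side of the control.

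Among the 4 libraries in which they were present, the members were most often highest in the control (52 of 150, 34.7%) or ACE 24 h (49, 32.7%), and most often lowest in ACE 48 h (53, 35.3%). The kept clusters were lowest in ACE 48 h in 18.0% of cases, were most often lowest in the control (43.7%) and were highest in the 4 libraries at 20.2% to 29.3% each. Across the 150 members, Pearson's r of log2(FPKM + 1) between a pair of these libraries was 0.312 to 0.446, against 0.715 to 0.893 across the kept clusters. Members span a narrower range of levels than kept clusters, and clusters of a library share its depth, so these r are a description with no p-value. The highest r among members was between the control and ACE 72 h (0.446), and the median size of their difference was also the smallest of the pairs (0.65 on the log2 scale), against 0.999 between the control and ACE 24 h. Among kept clusters the control was likewise nearer to ACE 72 h (0.61) than to ACE 24 h (0.70). Their smallest difference was 0.41, between ACE 48 h and ACE 72 h.

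Identifiers gave little further structure. The first number 118330 was shared by 148 of the 150 members (98.7%), by 99.4% of kept clusters and by 58.6% of all clusters. No source used here explains the first number. Cluster-146425.0 was the only cluster with its first number. Cluster-132495.2 shared its first number with 3 others. Cluster-132495.2 itself stood at 23.4 FPKM in the control library and 43.2, 16.2 and 54.5 FPKM at the anterior edge, with 0 in PCE. Of the others, Cluster-132495.0 and Cluster-132495.3 were also at 0 in every PCE library, while Cluster-132495.1 had 4.95 FPKM in PCE 72 h. The 4 clusters together came to 27.7 FPKM in the control library, to 43.2, 19.2 and 80.0 FPKM at the anterior edge, and to 0, 0 and 4.95 FPKM at the posterior edge. In this group the sum in PCE 72 h was therefore not 0.

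A measure that the choice did not use was had by choosing 150 clusters from 6 libraries and reading the seventh. The clusters so chosen overlapped the members in 44 to 112 cases. Chosen without PCE 24 h, 90 of 150 (60.0%) were listed at 0 in that library, against 7.99% of the 8996 clusters at the same floor in the control and ACE. Chosen without PCE 72 h, 99 (66.0%) were listed at 0 in it, against 6.23% of 9343. Chosen without PCE 48 h, only 41 (27.3%) were listed at 0 in it, against 1.85% of 6478, and 64 (42.7%) lay within 1 on the log2 scale of the mean of their control and ACE values, against 77.9% of those at the floor. For PCE 24 h and PCE 72 h, 27 (18.0%) each lay within 1, against 61.4% and 50.8%. The clusters at the floor were not limited in the other PCE libraries, whereas the chosen clusters were. Of kept clusters at 0 in the other PCE libraries, 36.8%, 62.0% and 30.1% were above 0 in PCE 24 h, PCE 48 h and PCE 72 h. Of the clusters chosen without these libraries, 40.0%, 72.7% and 34.0% were above 0 in them. The shares at 0 were no higher than in those kept clusters, but the sets are not alike. Kept clusters had a floor of 4.95 FPKM, and the chosen clusters one of 6.54, 9.47 and 6.27 FPKM. The sets also overlap, since 92, 44 and 100 of the chosen clusters are members. No conclusion is drawn from these shares. The median in PCE 48 h of the clusters chosen without it was 11.0 FPKM, while it was 0 FPKM in PCE 24 h and in PCE 72 h for the clusters chosen without those. Most clusters chosen with the other PCE libraries were thus listed at 0 in the left-out PCE 24 h or PCE 72 h, and a smaller part in PCE 48 h. Part of the summed level remained, however. The left-out PCE 24 h, PCE 48 h and PCE 72 h held 49.2%, 58.9% and 30.2% of the control's sum over the clusters chosen without them. Over the kept clusters, at their lower floor, these libraries held 106%, 141% and 123% of the control's sum. Single values among the chosen clusters reached 514.6, 711.2 and 313.9 FPKM, and a sum weighs such clusters most. Left-out control and ACE libraries also had more values of 0 than at the same floor, as given below, so the excess was not particular to PCE.

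The same reading at the anterior edge showed how often presence carried over. Chosen without ACE 24 h, 77 of 150 (51.3%) were listed at 0 in ACE 24 h, against 3.04% of the 7931 clusters at the same floor in the libraries used, and 39 (26.0%) lay within 1 of the mean of the control and the other ACE libraries, against 76.5%. Chosen without ACE 48 h, 46 (30.7%) were listed at 0 in it, against 1.5% of 8092, and 52 (34.7%) lay within 1, against 80.3%. Chosen without ACE 72 h, 18 (12.0%) were listed at 0 in it, against 0.435% of 10107, and 83 (55.3%) lay within 1, against 86.9%. The share at 0 in the left-out ACE 24 h was thus above that in the left-out PCE 48 h (27.3%), in data where each is a single library.

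Chosen without the control, from ACE and PCE alone, 118 of 150 (78.7%) were above 0 in the control and 32 (21.3%) were listed at 0, against 4.85% of the 12068 clusters at the same floor in ACE. Their median in the control was 10.7 FPKM, and 60 (40.0%) lay within 1 of the mean of the ACE libraries, against 55.1% of the clusters at that floor. In each of the 7 libraries left out, clusters chosen from the other libraries were listed at 0 more often than clusters at the same floor, whichever group the library belonged to. Whether the number of clusters a library detects plays a part was not tested.

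**Figure D4:**
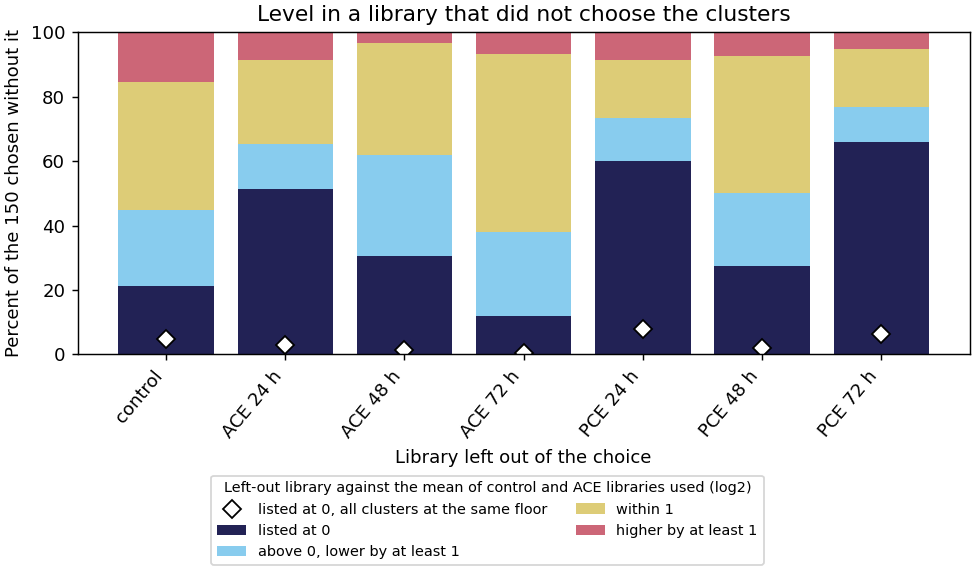
For each library left out of the choice (horizontal axis), the percent of the 150 clusters chosen without it (vertical axis) that were listed at 0 in it, lower, within 1 or higher than the mean of the control and ACE libraries used, on the log2(FPKM + 1) scale. Diamonds give the percent listed at 0 among all clusters at the same floor, whatever their level in PCE. The part at 0 is 60.0%, 27.3% and 66.0% for PCE 24 h, PCE 48 h and PCE 72 h, and 51.3%, 30.7% and 12.0% for ACE 24 h, ACE 48 h and ACE 72 h.

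With the edges exchanged, so that clusters were high in the control and PCE and low in ACE, 4 clusters reached the score of the last member. The 150 beside it is a number that the rule set, and the limit was taken from the members' own scores. The 4 were Cluster-118330.201016, Cluster-118330.201012, Cluster-137885.0 and Cluster-118330.136074, named after their values were seen, and all were listed at 0 in every ACE library. Cluster-118330.201016 stood at 16.7 FPKM in the control library and 1010, 16.9 and 74.8 FPKM in PCE at 24, 48 and 72 h. Without the 24 h libraries the counts were 17 and 570, with median-of-ratios scaling 4 and 115, and with quantile normalization 5 and 187. Of the 7460 clusters with at least 4.95 FPKM in the control and in every PCE library, 0.724% were listed at 0 in ACE 24 h, 0.416% in ACE 48 h and 0.147% in ACE 72 h, and 0.0536% at all 3 times.

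At the same score 87 clusters were high in PCE and low in the control and ACE, and 58 were high in ACE and low in the control and PCE. Without the 24 h libraries these counts were 717 and 342, so the former then exceeded the 570 of the pattern described here. With median-of-ratios scaling, 98 clusters were high in PCE over control and ACE, against 115 of the pattern described here. With quantile normalization the counts were 73 and 187. The PCE libraries also had fewer clusters above 0 than the control. Against ACE at the same time they had fewer as well, with 122580 against 122838 at 24 h. The part of that in these counts was not tested, and with 1 library per group the difference between the counts has no replicate check.

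**Figure D5:**
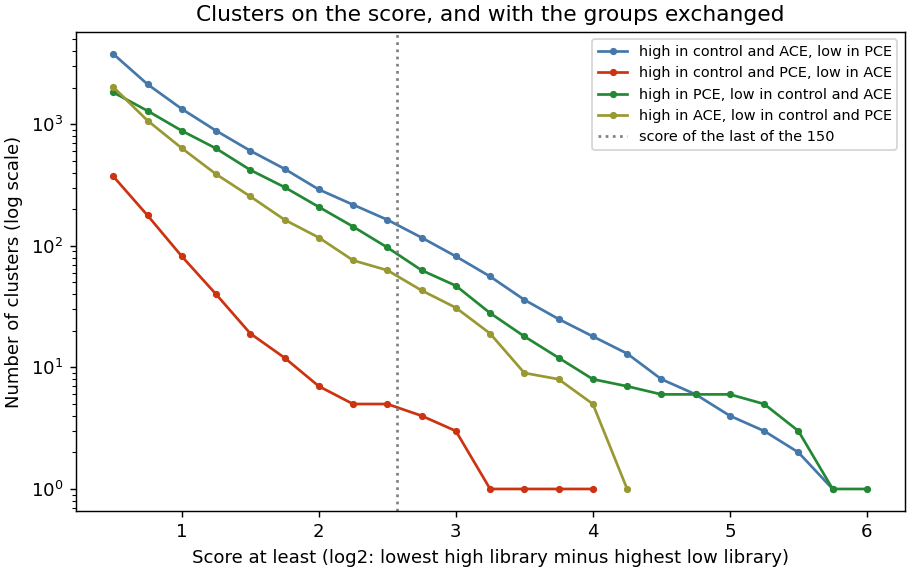
Number of clusters (vertical axis, log scale) with a score of at least the value on the horizontal axis, which is the lowest of the libraries meant to be high minus the highest of those meant to be low, in log2(FPKM + 1). At the dotted line, the score of the last of the 150 (2.57), the counts are 150 for control and ACE over PCE, 4 with the edges exchanged, 87 for PCE over control and ACE, and 58 for ACE over control and PCE.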

How the data were processed

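RNA of zebrafish tail fin was measured in 7 libraries, 1 per group, grouped by their titles. The authors deposited a table of FPKM with a column for each library. The tools named are edgeR, HTSeq 0.9.1 and HISAT2 2.0.5, without their roles, per the submitters' processing notes. Genome build, annotation, the making of the clusters and read numbers: not given in the sources used here.

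Values were computed in Python 3.11.15 (pandas 2.3.3, numpy 2.4.6, scipy 1.17.1) and plotted with matplotlib 3.10.9. FPKM was analysed as log2(FPKM + 1), which understates differences of low clusters. The members, the comparisons and the naming rule were chosen with earlier results of these data known. The rule named the 10 highest scores, the 5 of smallest range, largest range, highest PCE value and highest mean, the 3 on either side of the limit, and clusters sharing a first number. Since the score used every library and no group has a replicate, no test was run. A background of kept clusters and a wider set with a mean FPKM of at least 1, which all 150 members passed, are given for scale. Alternatives were a pseudocount of 0.1, 2 scalings, a minimum mean FPKM of 5, 100 or 300 members, 1.5-fold as the bound for steady, a level under 1 FPKM in place of 0, and leaving out each library. The split by level, the range counts and the share at 0 with the edges exchanged were added after the data were seen.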

Additional observations from a re-analysis of the deposited data

How the results depend on the processing

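With all 7 libraries, the chosen clusters shared 139 to 148 with the members when another pseudocount, scaling or minimum was used, and all 100 with 100 members. The share steady in ACE stayed at 22.7% to 31.0% and fell to 10% with a bound of 1.5-fold. The share at 0 in all 3 PCE libraries stayed at 93.0% to 98.7%, and 99.3% of members were under 1 FPKM in all 3. The trace left in PCE moved most, since it rests on few clusters. As a percent of the control's sum, it was 0.00097% at 24 h and 0.000727% at 48 h with a pseudocount of 0.1, 0.0172% at 72 h with a minimum mean FPKM of 5, and 0.224%, 0.362% and 0.144% at 24, 48 and 72 h with 300 members. Quantile normalization, which gives values of 0 a small level by its construction, had 0.200% at 24 h and 0.134% at 72 h. Without the 24 h libraries, 570 clusters reached the limit, 17 did with the edges exchanged, and 717 were high in PCE over control and ACE.

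When the choice left out 1 library, 44 to 112 clusters were shared with the members, 13.3% to 34.7% were steady in ACE, and 27.3% to 98.0% were at 0 in all 3 PCE libraries. The lowest of these came without PCE 48 h, without ACE 24 h and without PCE 48 h. The sum left in PCE was then 0.0324% to 49.2% at 24 h, 0.0940% to 58.9% at 48 h and 0.000451% to 30.2% at 72 h, each highest where that library did not choose the clusters. No paired analysis was possible because the labels give no pairing of libraries. The score chose the members from these same values, and no result comes from a test. With 1 library per group, no library could be set against others of its group.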
